A study of Mus musculus with 4 samples.

Results

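The genes described here are 37 enzymes of amino acid catabolism, the liver enzymes that strip nitrogen from amino acids and break down their carbon skeletons. They were taken by name from a fixed list and grouped by substrate: tyrosine and phenylalanine (4 genes), tryptophan (7), branched-chain amino acids (9), lysine (2), serine, glycine and sarcosine (6), histidine (4), and proline, ornithine and glutamine (5). Of the 28786 genes on the array, 36 were enzymes of this list, and Haao was not analysed here. The spot of Acmsd was not well above background in enough channels to be measured at either stage. This left 35 enzymes measured in fetal liver and 31 in maternal liver, because the spots of Tat, Sds, Prodh and Hal were flagged as outliers on 1 maternal array each.

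Liver RNA of C57BL/6J mice, an inbred laboratory strain, was hybridised to 4 two-colour Agilent arrays, 2 for the fetus and 2 for the mother. On each array, RNA of the food-deprived condition (FD) was set against RNA of the control condition of the same stage. The first array of a stage carried the FD RNA in the red dye Cy5, and the second carried it in the green dye Cy3. Each condition was a pool of RNA from 5 to 10 biological replicates, as the submitters state, so each value below is that of a pool. No genetic alteration is given for any group, and how long food was withheld, the gestational stage and the fetal sex were not given in the sources used here.

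When glucose and glycogen run low, the liver takes up amino acids released from muscle, turns their carbon into glucose or ketone bodies and passes their nitrogen to urea. Several of the enzymes are classic targets of glucocorticoids and glucagon in adult rodents, Tat and Tdo2 among them. Many are low before birth, when the placenta supplies glucose, and their levels climb around and after birth.

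The scanner software found 53.2% to 69.7% of gene spots well above background, depending on array and dye, and 0 saturated. Values are log2 ratios of FD over control on the first and the second array unless said otherwise. The SD per array of such a ratio, taken from the difference between a stage's arrays over all genes, was 0.15 for fetal and 0.16 for maternal liver. The call rule asked for a mean change of 2-fold or more, with 1.5-fold or more on each array and in the same direction. The words rose and fell are kept for called genes. The labels number the pooled samples of a stage 1 and 2, one for each dye orientation, and do not settle whether these are the same pools hybridised again or separate ones. They were treated as the same pools, hence as 1 replicate per condition, and no test was made on that ground. If the pools were separate, the SD per array would hold more than technical spread. The number of arrays limits the precision.

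In fetal liver, nearly the whole set of enzymes read higher after food deprivation, by modest amounts. The log2 ratio was above 0 for 32 of 35 enzymes with a median of 0.47, against 51.2% and a median of 0.00 over all 18055 genes measured. Both arrays were above 0 for 29 of the 35 enzymes (82.9%), compared with 32.0% of all genes. Only 3 enzymes passed the call as higher, Tat, Aass and Sds, and 0 as lower. Over all genes 0.465% were called higher and 0.266% lower, while 8.57% of the measured enzymes were called higher.

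In maternal liver more of the set read lower than higher, with calls in both directions. Of 31 enzymes 11 were above 0 and the median was -0.17, against 48.0% and a median of -0.01 over all 16148 genes measured. Both arrays were below 0 for 19 of the 31 enzymes (61.3%), compared with 38.6% of all genes, and above 0 for 10 (32.3% against 32.8%). Tdo2, Aass and Sdsl rose and Afmid and Pipox fell. Over all genes 1.56% were called higher and 1.88% lower. These 5 calls rest on the normalisation that removes dye bias along intensity: with each array only centred on its median, the means stayed close (Aass 1.78, Tdo2 1.54, Sdsl 1.41, Afmid -1.13 and Pipox -1.24), but none of the 5 passed on both arrays. The plot of responses by array shows every enzyme at both stages.

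**Figure D1:**
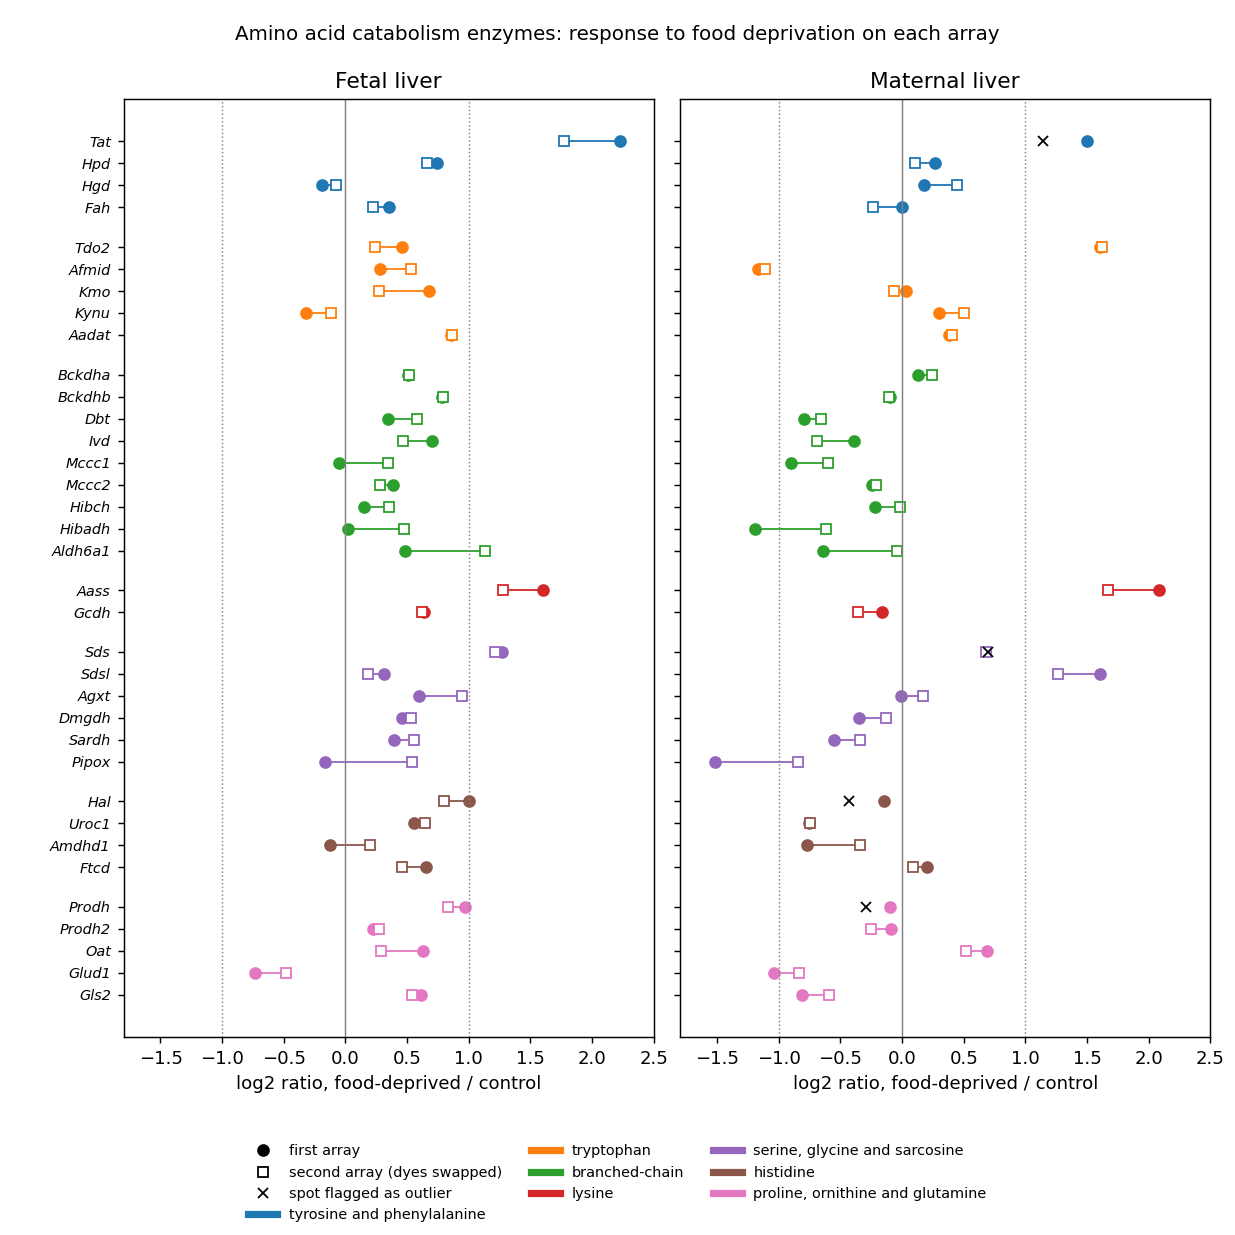
Log2 ratio of food-deprived over control liver for each measured enzyme, grouped and coloured by substrate, in the fetus (left) and the mother (right). Filled circles are the first array, open squares the second array with dyes swapped, crosses are spots flagged as outliers, and dotted lines mark 2-fold. In the fetus 32 of 35 enzymes have a mean above 0, and in the mother 11 of 31.

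Aass, which encodes the bifunctional enzyme that opens lysine breakdown, was the enzyme called higher at both stages. Tat rose in the fetus and Tdo2 in the mother. The 250 bases before the start of these genes are printed because they are the aminotransferase and oxygenase classically tied to glucocorticoids and the gene called at both stages. They are RefSeq promoter sequences of build GRCm38.p6, 5′ to 3′ along the gene. Capitals mark matches on either strand to part of a glucocorticoid receptor motif (TGTTCT), part of a cyclic AMP response motif (TGACG) or a C/EBP motif (TTGCNNAA). The full forms of the first and second were not searched.
Tat, chr8:109990186-109990435, plus strand: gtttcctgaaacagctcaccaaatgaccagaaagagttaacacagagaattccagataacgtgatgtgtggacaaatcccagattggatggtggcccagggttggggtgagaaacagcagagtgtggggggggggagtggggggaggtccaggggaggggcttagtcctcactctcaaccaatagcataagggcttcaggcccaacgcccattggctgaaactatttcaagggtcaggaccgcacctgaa
Aass, chr6:23132987-23133236, minus strand: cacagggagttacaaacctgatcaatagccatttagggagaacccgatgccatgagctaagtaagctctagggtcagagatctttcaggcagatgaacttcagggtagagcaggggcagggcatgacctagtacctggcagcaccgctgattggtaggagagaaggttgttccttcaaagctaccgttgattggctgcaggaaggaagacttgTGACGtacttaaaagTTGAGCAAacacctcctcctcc
Tdo2, chr3:81975729-81975978, minus strand: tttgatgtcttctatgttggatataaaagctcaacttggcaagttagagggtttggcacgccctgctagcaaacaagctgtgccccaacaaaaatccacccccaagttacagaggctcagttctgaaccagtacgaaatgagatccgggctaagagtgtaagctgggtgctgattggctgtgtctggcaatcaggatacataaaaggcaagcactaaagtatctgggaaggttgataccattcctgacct
Aass held TGACG at 37 to 33 bases before the start, on the strand of the gene, and TTGCNNAA at 22 to 15 bases before it, on the opposite strand. The windows of Tat and Tdo2 held none of the 3 motifs, which says only that these letters are not in these bases. The promoter table held 34 windows for 32 of the 37 enzymes. TGTTCT was found in 3 of the 34 windows (8.82%) against 16.1% of all 32851 windows, TGACG in 3 (8.82%) against 17.8%, and TTGCNNAA in 5 (14.7%) against 9.56%. A match is a description of the letters, not of a bound site.

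In the tyrosine and phenylalanine group, Tat had the highest fetal ratio of all the enzymes. It encodes tyrosine aminotransferase, which takes the amino group from tyrosine as the opening step. Its log2 ratio was 2.23 and 1.77 in the fetus, a 4.0-fold rise. In the mother the unflagged first array gave 1.5 and the flagged spot on the second array 1.14, so the maternal spots read higher as well, and Tat passes the maternal call if flagged spots are kept. The enzymes downstream of it moved less. Hpd, the dioxygenase that makes homogentisate, gave 0.75 and 0.67 in the fetus and 0.27 and 0.10 in the mother. Hgd, which opens the ring of homogentisate, gave -0.19 and -0.07 in the fetus but 0.18 and 0.44 in the mother, and Fah, the last enzyme of the route, stayed between -0.24 and 0.36 on all 4 arrays. None of these 3 was called.

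The tryptophan group held both a rise and a fall in the mother. Tdo2, the dioxygenase that opens the indole ring and controls entry to the kynurenine pathway, gave 1.61 and 1.62 in the mother, a 3.06-fold rise. Afmid, the formamidase of the next step, gave -1.17 and -1.11 there, a 2.20-fold fall. The maternal arrays of each gene differed by less than the SD per array, and these neighbouring steps went opposite ways under both dye orientations. A further Afmid probe gave -1.42 and -0.72.

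In the fetus Tdo2 was dim: its control channel was well above background on 1 of 2 arrays. Its fetal ratio of 0.46 and 0.24 was not called, but the scanner software's own ratio, made without the offset of 50, gave a mean of 1.47 that passes the call. The fetal response of Tdo2 is therefore not settled by these arrays. Afmid gave 0.28 and 0.54 in the fetus, and its further probe -0.11 and 0.01.

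The remaining tryptophan enzymes had smaller ratios and none was called. Aadat, an aminotransferase acting on kynurenine and on the lysine product 2-aminoadipate, gave 0.86 and 0.87 in the fetus and 0.38 and 0.40 in the mother. Kmo, which hydroxylates kynurenine, gave 0.68 and 0.27 in the fetus and 0.03 and -0.06 in the mother. Kynu, kynureninase, went the other way from most enzymes, with -0.32 and -0.12 in the fetus and 0.30 and 0.50 in the mother.

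The branched-chain group read higher in the fetus and, but for 1 enzyme, lower in the mother. All 9 of its enzymes had a mean above 0 in the fetus, with a median of 0.46 and a range from 0.14 to 0.81, and 1 of 9 was above 0 in the mother, with a median of -0.34 and a range from -0.90 to 0.19. None of the 9 was called at either stage alone. The subunits of the branched-chain ketoacid dehydrogenase, the committed step shared by leucine, isoleucine and valine, differed among themselves in the mother. The E1 subunit genes gave 0.51 and 0.52 (Bckdha) and 0.78 and 0.80 (Bckdhb) in the fetus, and 0.13 and 0.24 (Bckdha) and -0.10 and -0.11 (Bckdhb) in the mother. Dbt, the E2 transacylase core, gave 0.35 and 0.58 in the fetus and -0.79 and -0.66 in the mother. The maternal values of Bckdha come from a brighter probe that was flagged on 1 fetal array, and the probe used in the fetus gave -0.07 and 0.11 in the mother. So E2 read lower in the mother while both E1 genes stayed near 0.

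Beyond that complex, the means of the leucine and valine branches had the same pattern. Ivd, isovaleryl-CoA dehydrogenase of leucine breakdown, gave 0.70 and 0.46 in the fetus and -0.39 and -0.69 in the mother. Hibadh, which oxidises 3-hydroxyisobutyrate from valine, gave 0.02 and 0.48 in the fetus and -1.19 and -0.62 in the mother. Aldh6a1, the methylmalonate semialdehyde dehydrogenase of valine breakdown, gave 0.48 and 1.13 in the fetus and -0.64 and -0.04 in the mother. The spread between the arrays was wide for Hibadh and Aldh6a1, with the second array higher at both stages. Mccc1 and Mccc2, the subunits of methylcrotonyl-CoA carboxylase, had means of 0.14 and 0.33 in the fetus and -0.75 and -0.23 in the mother. The fetal arrays of Mccc1 disagreed in sign, at -0.05 and 0.34. The hydrolase gene Hibch had means of 0.25 in the fetus and -0.12 in the mother.

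Of the lysine enzymes, Aass gave 1.60 and 1.27 in the fetus, a 2.71-fold rise, and 2.08 and 1.67 in the mother, a 3.67-fold rise. The arrays do not overlap between the stages, but the difference between them, 0.44, was not called. Gcdh, the glutaryl-CoA dehydrogenase further along the route, gave 0.64 and 0.62 in the fetus and -0.16 and -0.36 in the mother, and was not called.

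Sds and Sdsl encode serine dehydratase and its close relative. Sds, which turns serine to pyruvate, gave 1.27 and 1.22 in the fetus, a 2.37-fold rise. In the mother the flagged first array of Sds gave 0.70 and the second 0.68. Sdsl gave 0.31 and 0.19 in the fetus and 1.61 and 1.27 in the mother, where it rose 2.71-fold. Sds thus passed the call in the fetus and Sdsl in the mother. The difference between stages was called for Sdsl. It was not called for Sds, also when flagged spots are kept.

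The glycine and sarcosine enzymes read higher in the fetus and mostly lower in the mother. Pipox, a peroxisomal oxidase of pipecolate and sarcosine, gave -1.52 and -0.85 in the mother, a 2.27-fold fall, with the second array alone short of 2-fold. In the fetus the arrays of Pipox disagreed in sign, at -0.16 and 0.54. Dmgdh and Sardh, which demethylate dimethylglycine and sarcosine, had means of 0.49 and 0.47 in the fetus and -0.24 and -0.45 in the mother. Agxt, the peroxisomal aminotransferase that detoxifies glyoxylate, gave 0.60 and 0.94 in the fetus and -0.01 and 0.17 in the mother.

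Of the histidine enzymes none was called in a response. Hal, the ammonia-lyase that opens histidine breakdown, gave 1.00 and 0.80 in the fetus, close to the 2-fold limit, and in the mother -0.14 on the unflagged array and -0.43 on the flagged one. Uroc1, urocanase, gave 0.55 and 0.64 in the fetus and -0.76 and -0.74 in the mother. Thus the opening enzymes read higher in the fetus and lower in the mother. Of the later ones, Amdhd1, which acts after urocanase, had means of 0.04 in the fetus and -0.55 in the mother. Its fetal arrays disagreed in sign, at -0.13 and 0.20. Ftcd, which passes the last carbon unit to folate, had means of 0.56 and 0.15 and was above 0 on all 4 arrays.

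In the proline, ornithine and glutamine group, Prodh was close to the limit in the fetus. This proline dehydrogenase gave 0.97 and 0.83 there, and -0.10 on the unflagged and -0.30 on the flagged maternal array. With the scanner software's ratio its fetal mean was 1.13 and was called. Prodh2, which acts on hydroxyproline, had means of 0.25 and -0.17.

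Gls2, the liver-type glutaminase, gave 0.62 and 0.54 in the fetus and -0.81 and -0.60 in the mother. Oat, ornithine aminotransferase, was above 0 at both stages, with 0.63 and 0.29 in the fetus and 0.69 and 0.52 in the mother. Glud1, the glutamate dehydrogenase that releases ammonia in mitochondria, was the enzyme below 0 on all 4 arrays, with -0.73 and -0.48 in the fetus and -1.04 and -0.84 in the mother. It was not called at either stage.

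The maternal minus fetal response was then taken for each dye orientation, over the 31 enzymes measured at both stages. It was below 0 for 25 of them, with a median of -0.56, against a median of -0.02 over 15598 genes. Tdo2 (1.14 and 1.38) and Sdsl (1.30 and 1.08) were called higher. The enzymes called lower numbered 8: Afmid, Pipox, Uroc1, Gls2, Dbt, Hibadh, Aldh6a1 and Ivd, with means from -1.55 for Afmid to -1.12 for Ivd. Over all genes 1.23% were called higher and 1.76% lower, and of the enzymes 6.45% and 25.8%. Of the 8 called lower, 4 belong to the branched-chain group, all 9 of whose enzymes were below 0.

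Of these 8, Afmid and Pipox had also fallen in the mother, whereas the other 6 passed neither response alone and differ because their ratios lie on opposite sides of 0. The difference of Tdo2 was 0.17 with the scanner software's ratio and was then not called. With each array centred on its median, neither Tdo2 (1.21) nor Sdsl (0.96) passed, while the same 8 enzymes were called lower. With flagged spots kept, Hal and Prodh joined them and the count was 10 of 35. Over all genes 286 were then called lower, against 274 otherwise.

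**Figure D2:**
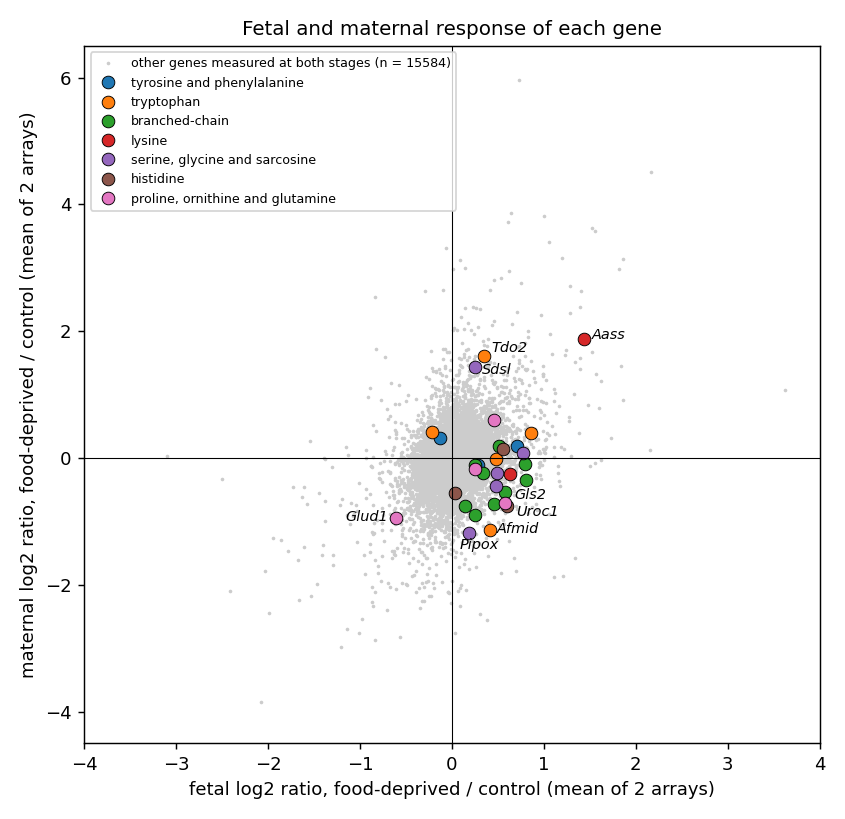
Mean log2 ratio of food-deprived over control in the fetus (horizontal) and in the mother (vertical) for each gene measured at both stages, with the enzymes coloured by substrate and other genes in grey. Most enzymes lie right of 0 and 20 of 31 lie below 0 in the mother, with Aass high on both axes, Tdo2 and Sdsl high in the mother and near the bulk of the enzymes in the fetus, where Tdo2 was dim, and Glud1 low on both. Tat, Sds, Prodh and Hal are not drawn, as each had a flagged maternal spot.

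The control channels show how far the fetal liver was from the maternal one in the control pools, without food deprivation. For all 31 enzymes the control level was higher in the mother, with a median difference of 1.52 on the log2 scale, and 25 of them were called higher and 0 lower. Over 18085 genes 9.06% were called higher in the mother and 10.3% lower, and the median was 0.02. The difference ran from 0.43 for Fah to 5.77 for Tdo2, whose fetal control levels were 6.58 and 6.69 and maternal ones 12.40 and 12.40. As the fetal Tdo2 control was well above background on 1 of 2 arrays, this size depends on the scaling, and processed signals scaled by their 75th percentile gave 9.30. After Tdo2, the widest differences were those of Oat (3.27), Amdhd1 (2.82), Kmo (2.60) and Hgd (2.34). The 6 enzymes not called were Fah, Prodh2, Glud1, Dbt, Ivd and Sdsl, all between 0.43 and 0.93.

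Flagged spots were not used for these differences, but the 4 enzymes concerned read far lower in the fetus too. Tat had control levels of 9.47 and 9.67 in the fetus and 13.76 and 14.38 in the mother. Levels of Hal were 10.04 and 10.37 against 13.44 and 13.36, those of Prodh 8.14 and 8.06 against 11.58 and 11.74, and those of Sds 7.90 and 8.01 against 11.58 and 11.49. In none of the 4 did the stages overlap, but the share of all genes without overlap was not counted. With flagged spots kept, 35 of 35 enzymes were higher in the maternal control liver, against 51.7% of all genes.

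In the food-deprived channels the median difference between mother and fetus was 0.84, and 28 of 31 enzymes were still higher in the mother. The 3 that were not were Dbt (-0.41), Ivd (-0.20) and Pipox (-0.13). Compared across conditions, the fetal FD level lay above the maternal control level for 1 enzyme, Aass, by 0.10, and the median of fetal FD minus maternal control over the 31 was -1.20. These values hold the same channels as the responses above and add no independent support to them.

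**Figure D3:**
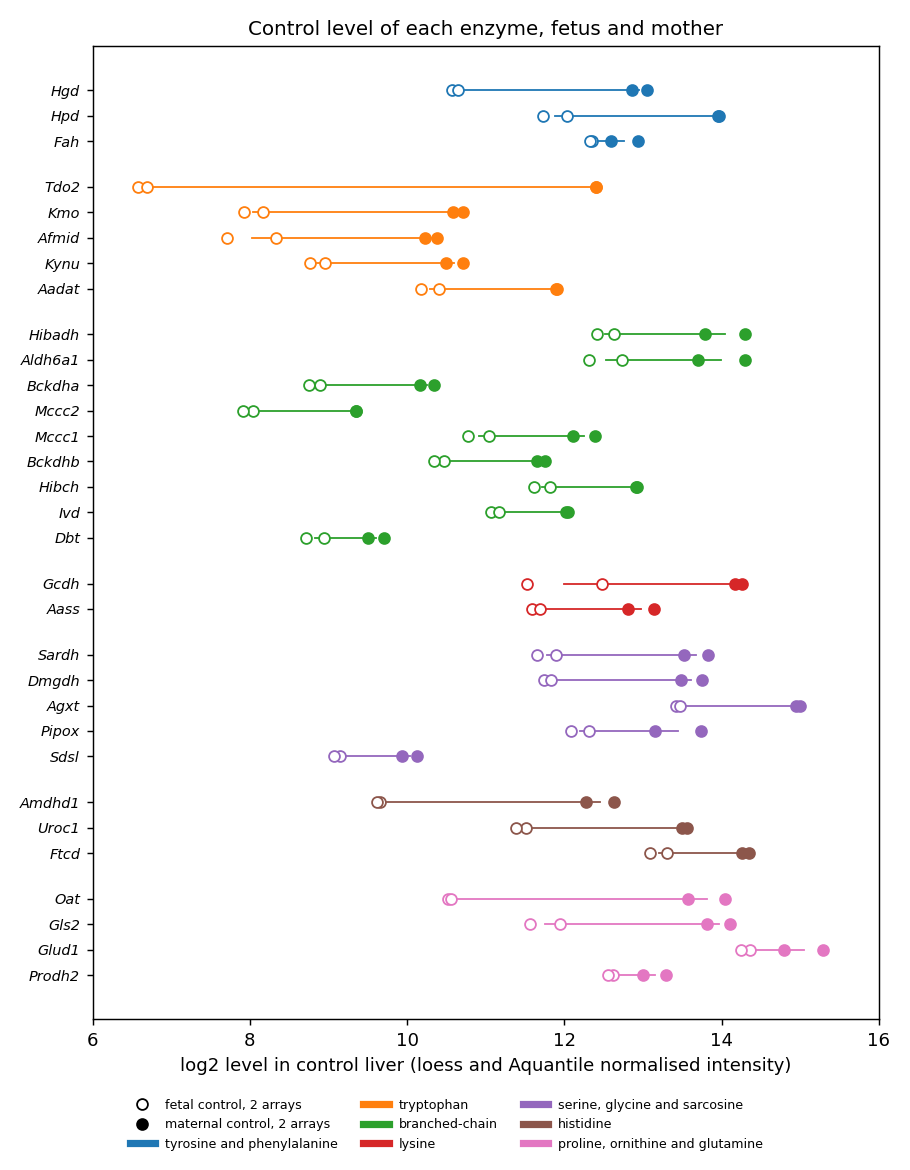
Log2 level of each enzyme in control liver on the arrays of the fetus (open circles) and of the mother (filled circles), grouped by substrate, with a line joining the stage means. Levels compare within a gene and not between genes. All 31 enzymes are higher in the mother, by 0.43 for Fah to 5.77 for Tdo2.

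Cell type markers were read beside these results, since fewer cells of a type and less RNA per cell cannot be told apart in whole liver. The 9 hepatocyte markers measured, such as the albumin gene, were well above background at both stages. Their control levels had a median difference of -0.0050 between mother and fetus, with a range from -0.31 to 1.42 and 4 of 9 higher in the mother. Their summed level was 275200 and 395400 intensity units in fetal control and 365600 and 312400 in fetal FD liver. In the mother it was 342400 and 407100 in control and 438500 and 351500 in FD liver. Several of these markers were very bright. Control levels of Alb were 15.48 and 16.05 in the fetus and 15.21 and 16.02 in the mother. Whether brightness narrows such differences was not tested, so their median does not show equal hepatocyte RNA. All 9 erythroid markers measured were called lower in the maternal control liver, with a median of -4.31, and 4 of them were not well above background there. The fetal liver is a site of blood formation. The summed erythroid level was 155600 and 156600 in fetal control and 12680 to 14020 in maternal control intensity units.

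For the fetal response, hepatocyte markers had a median of -0.02 with 4 of 9 above 0, and erythroid markers a median of -0.24 with 0 of 9 above 0 and none called. The fetal arrays disagreed in sign for the hepatocyte markers Alb (0.32 and -0.56), Trf (0.37 and -0.50) and Fgb (0.53 and -0.58). They also did for Ambp (0.62 and -0.78) and Apoa2 (0.28 and -0.02). Apoa1, Fga and Hpx were above 0 and Ttr below 0 on both. The hepatocyte median thus averages over arrays of opposite sign. The summed erythroid level after food deprivation was 147300 and 117900. On the second array Hba-a1, a bright member of that sum, went from a log2 level of 16.34 to 15.59. The fetal arrays disagreed in sign for Hba-a1 (0.15 and -0.75) and for Alas2 (-0.13 and 0.02). For the maternal response, granulocyte and macrophage markers had a median of -0.56 with 1 of 7 above 0. Their sum was 18190 and 16870 in control and 10030 and 8697 after food deprivation. Of the macrophage markers, Adgre1 (-1.16 and -1.09) and Cd5l (-1.01 and -1.05) fell, where 1.88% of all genes were called lower. The granulocyte markers Mpo (-0.24 and -0.11) and Prtn3 (0.04 and 0.01) stayed near 0, and Elane was not measured in the mother. The part of these shifts in the enzyme values was not tested.

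Transcripts of the sex chromosomes moved with the fetal comparison as well. Xist, the RNA of the inactive X chromosome, was at least 6.89-fold lower in the FD fetal pool, where neither array read it well above background. Of the Y chromosome, Ddx3y and Eif2s3y had fetal means of 0.40 and 0.38. In the mother Xist gave 0.08 and -0.03. The part of fetal sex in the fetal enzyme values was not tested.

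Other genes of the same routes, a list of 43, leaned the same way at each stage, with a smaller median in the fetus. In the fetus 30 of 39 measured were above 0 with a median of 0.27, and 3 were called higher and 0 lower. Over all genes 51.2% were above 0, and 0.465% were called higher and 0.266% lower. In the mother 10 of 40 were above 0 with a median of -0.25, and 3 were called higher and 3 lower. The shares over all genes were 48.0% above 0, 1.56% called higher and 1.88% lower. Of the 3 rises at each stage, 2 were of transaminase genes. Got1, the cytosolic aspartate aminotransferase, rose at both stages, with 1.26 and 1.21 in the fetus and 1.84 and 1.56 in the mother. The alanine aminotransferases split by stage: Gpt gave 1.61 and 1.39 in the fetus and -0.10 and -0.17 in the mother, while Gpt2 gave -0.03 and -0.16 in the fetus and 1.70 and 1.74 in the mother. The stage difference was called for both, at -1.64 for Gpt and 1.82 for Gpt2.

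Gnmt, the glycine methyltransferase that makes sarcosine, rose in the fetus (1.08 and 1.23) and read -0.03 and -0.24 in the mother. Hsd17b10, of isoleucine breakdown, rose in the mother (0.94 and 1.31). The 3 that fell in the mother were Kyat1, a kynurenine aminotransferase (-1.20 and -1.18), Gcat, of threonine breakdown (-1.23 and -0.97), and Aldh4a1, which follows proline dehydrogenase (-1.08 and -0.94). Of these falls Gcat was also below 0 in the fetus, at -0.63 and -0.45.

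Of 10 transcriptional regulators of these enzymes, 1 was called, in the mother, where 1.56% of all genes were called higher and 1.88% lower. Cebpb, a C/EBP transcription factor, rose in the mother (1.08 and 1.13) and gave 0.45 and 0.53 in the fetus. Ppargc1a, a coactivator of gluconeogenic genes, gave 1.1 and 0.89 in the fetus and 0.99 and 0.77 in the mother, just short of the call at both stages. Klf15, which controls amino acid catabolism genes, gave 1.35 and 0.52 in the fetus and 0.41 and -0.26 in the mother. The spread between its arrays was wide at both stages, and the maternal arrays disagreed in sign. Its maternal minus fetal values were -0.94 and -0.78, and it was not called in either response or in the difference. Nr3c1, the glucocorticoid receptor gene, gave 0.03 and 0.05 in the fetus and -0.58 and -0.54 in the mother.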

How the data were processed

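Per the file headers, the authors' scanner files give for every spot the linear intensity of spot and local background in each dye. They also give a log10 ratio, red to green, of background-subtracted and dye-normalised signals, per the file headers. The scanner software was Agilent Feature Extraction, as version 9.5.1.1 in the headers and as 9.5.3.1 per the submitters' processing notes. The authors' series table, a linear red to green ratio whose sign has an unknown meaning, served as an alternative.

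With R 4.3.3 and limma 3.58.1, intensities were corrected by normexp (offset 50, which shrinks ratios of dim spots), normalised within arrays by loess (weight 0 for control spots) and expressed as food-deprived over control. Control levels were further normalised by Aquantile. Outlier flags removed 215 to 257 gene spots per array, and repeated spots were averaged. A probe was measured when 1 condition was well above background on both arrays, and the brightest measured probe stood for a gene. Of 41174 gene probes, 22951 were named through RefSeq (GRCm38.p6), which changed the name of 5141, and the others have the names in the files. The normalisation and the call rule were tested on simulated dye-swapped arrays, with known changes put only into bright spots. Flag removal, the background filter, probe choice, control levels, stage differences and bounds were not part of that test. A bound on a fold compares the mean of the bright channel with a floor per array, the lowest signal called well above background or the dim signal where that is higher.

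The enzymes, the pathway, regulator and marker lists and the call rule were chosen with earlier results of these data known. Array values are given for enzymes called in a response or in its difference between stages, and for Tat, and other enzymes are given to account for the whole list; of the pathway list, genes called in a response are named. Further regulators and enzymes with values were picked after these were seen.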

Additional observations from a re-analysis of the deposited data

Results flagged for a closer look

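For 17 of the 31 enzymes measured at both stages, both fetal arrays lay on one side of 0 and both maternal arrays on the other. Over 15615 genes the share was 17.3%. The arrays of a stage were treated as 1 pool per condition, and the difference between the stages was not tested.

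In 15 of the 17, food deprivation went with a ratio above 0 in the fetus and below 0 in the mother. The maternal minus fetal values of those called were -1.55 for Afmid, -1.35 for Uroc1, -1.28 for Gls2, -1.19 for Dbt, -1.15 for Hibadh, -1.15 for Aldh6a1 and -1.12 for Ivd. Among those not called, Sardh had -0.92, Bckdhb -0.89, Gcdh -0.89, Dmgdh -0.73, Mccc2 -0.56, Prodh2 -0.42, Fah -0.41 and Hibch -0.37. Of the 17, 10 had at least 1 array within 1 SD per array of 0: Aldh6a1, Bckdhb, Dmgdh, Fah, Gcdh, Hgd, Hibadh, Hibch, Kynu and Prodh2. The other 7 had none.

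Hgd, at 0.44, and Kynu, at 0.62, went the opposite way, below 0 in the fetus and above 0 in the mother. Neither was called. A further Kynu probe, not well above background in the fetus, gave 0.11 and 0.01 there.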

How the results depend on the processing

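No paired analysis was possible because the replicate number goes with the dye orientation, each array already sets both conditions against each other, and the arrays of a stage were treated as 1 pool per condition. No called enzyme changed sign under any alternative run. With median centring in place of loess, 0 enzymes were called higher and 0 lower in the mother and 0 higher in the stage difference, and the fetal median of all genes moved to 0.11 (enzymes 0.70). The share of calls over all genes that were higher then went from 63.6% to 76.1% in the fetus, from 45.4% to 34.7% in the mother and from 41.2% to 15.6% in the difference; all-gene calls higher and lower were 67 and 21 in the fetus (84 and 48 with loess), 41 and 77 in the mother (252 and 303) and 66 and 357 in the difference (192 and 274). The cause was not tested.

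With the scanner software's ratio 5 enzymes were called higher in the fetus and 1 in the difference, and with the deposited values 5 in the fetus, Prodh and Tdo2 being added; over all genes the software's ratio called 233 higher and 173 lower in the fetus, 663 and 808 in the mother and 493 and 712 in the difference, and the deposited values 234 and 174 in the fetus and 664 and 812 in the mother. At 1.5-fold for the mean and a lower limit per array, 12 enzymes were higher and 1 lower in the fetus and 4 higher and 8 lower in the mother, with 319 and 166 of all genes called in the fetus and 702 and 894 in the mother. On 1 array alone, enzymes called lower in the mother ranged from 1 to 4, and Pipox was lost without the first array. Over all genes 269 were called lower without the first maternal array and 368 without the second, against 303 with both. With processed signals scaled by their 75th percentile, all 31 enzymes were called higher in the maternal control liver, among 3954 genes higher and 3542 lower (1638 and 1854 otherwise). The number of enzymes above 0 ranged from 29 to 33 in the fetus, 10 to 13 in the mother and 5 to 6 in the difference. Dim spots, Tdo2 in the fetus first, limit what these arrays resolve.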

Other observations

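Zonation markers, which differ between the portal and the central side of the adult lobule, also shifted. Of 4 pericentral markers, all 4 were called higher in maternal than in fetal control liver, with a median of 4.06. The size of this median depends on dim fetal spots. Cyp1a2 was not well above background in fetal control liver, and Slc1a2 had levels of 6.72 and 6.76 there. The 4 periportal markers had a median of 1.18 in that comparison, with 2 called higher and 1 lower. Over all genes 9.06% were called higher and 10.3% lower there. In the response, pericentral markers had a median of 0.97 in the fetus (3 of 3 above 0) and -0.11 in the mother (2 of 4). Cyp2e1, an alcohol-metabolising cytochrome, rose in the fetus (1.32 and 1.06) and gave 0.37 and -0.03 in the mother, and Cyp1a2 fell in the mother (-1.34 and -1.32). Of 4 periportal markers, 3 were above 0 in the fetus with a median of 0.76 and 2 of 4 in the mother with a median of 0.34. Pck1 of gluconeogenesis was the periportal marker called in both, at 3.56 and 3.69 in the fetus and 1.13 and 1.00 in the mother, with a called stage difference of -2.56. Of 10 hepatocyte markers, Ttr, the thyroxine carrier, fell in the mother (-1.74 and -1.92). All 4 kidney markers, looked at because kidney also holds several of the enzymes, had a probe, and 0 were measured at either stage.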
